A study of Homo sapiens with 4 samples.

Results

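The expression of 10 genes of transforming growth factor beta (TGF-beta), activin and bone morphogenetic protein (BMP) signaling was compared between FCN3-virus-transduced and control A549 cells. The genes were chosen by name from the 25192 genes of the deposited tables, and all 10 were found there. They comprise the ligand genes INHBA, INHBE, TGFB1 and TGFB2, the inhibitory SMAD genes SMAD6 and SMAD7, the corepressor gene SKIL, and ID1, ID2 and ID3, which code for inhibitors of DNA binding. A549 is a cell line derived from human lung adenocarcinoma. RNA was extracted 48 h after infection from cells that received either a control virus (empty virus, EV, 2 libraries) or a virus expressing the full-length FCN3 coding sequence with a V5 tag (2 libraries). Both viruses were made with a retroviral vector that also expresses GFP, so the EV cells were transduced as well. The 4 cultures come from a single cell line, and the sources used here do not say whether same-numbered cultures were handled together.

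Ligands of this family bind pairs of type I and type II serine/threonine kinase receptors. TGF-beta and activin receptors phosphorylate SMAD2 and SMAD3, BMP receptors phosphorylate SMAD1, SMAD5 and SMAD9, and both sets enter the nucleus with SMAD4. The signal turns on its own brakes, among them SMAD7, SMAD6 and SKIL, and ID1, ID2 and ID3 are classical targets of the BMP branch. In epithelial and lung cancer cells TGF-beta is known for growth arrest and for epithelial-mesenchymal transition, and ID proteins for holding back differentiation by binding basic helix-loop-helix factors.

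The libraries held between 16353554 and 35733735 expected counts, replicate 1 being deeper than replicate 2 in each group. FCN3 had 1 and 0 counts in the EV libraries and 722388 and 448352 counts with the FCN3 virus. All 6 epithelial markers examined were expressed. From EV to FCN3 cells, mean EPCAM went from 3.155 to 1.35 TPM and KRT19 from 42.5 to 92.5 TPM, without overlap. KRT7, KRT8, KRT18 and CDH1 overlapped between the groups. Of 5 leukocyte markers only CD68, and of 5 fibroblast markers only THY1, exceeded 1 TPM in any library, while none of 5 endothelial markers did. The other 4 leukocyte markers were at or under 3 counts in all libraries. The leukocyte markers summed to 33.9 to 35.7 TPM in EV cells and 49.8 to 61.9 TPM in FCN3 cells, nearly all of it CD68. The fibroblast markers summed to 11.1 to 12.1 TPM and 6.55 to 6.83 TPM, most of it THY1. The part of either sum in the results was not tested. The EV replicate difference (1 minus 2) correlated with the FCN3 replicate difference over 8310 genes (Pearson's r = 0.806, across genes, which are not independent replicates). Levels are given as CPM, that is counts scaled to the TMM-normalized library size. Genes were tested with edgeR's quasi-likelihood test, unpaired and paired, where paired means that the replicate number was a block in the fit. Where only a paired result is printed, the gene did not pass the unpaired fit. All adjusted p-values below are from these fits, with Benjamini-Hochberg adjustment over 14099 tested genes and a threshold of 0.01, and SE stands for the standard error of a log2 fold change. Exact two-sided permutation of 2 against 2 libraries gives no p smaller than 0.333, so single genes were tested only in fits across all genes. In bulk RNA, fewer cells expressing a gene and less of its RNA per cell cannot be told apart.

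The ID genes and SMAD6 were lower in both FCN3 libraries than in both EV libraries, and TGFB2 and SKIL were higher. In the unpaired fit, 0 of the 10 genes passed the threshold. An unadjusted p under 0.05 was found for 6, of which 4 were lower and 2 higher with the FCN3 virus, and for 25.1% of all tested genes (11.6% lower and 13.6% higher). In the same fit 0.965% of all tested genes passed the threshold, 0.738% as increases and 0.227% as decreases. In the paired fit 7 of the 10 passed, INHBA, TGFB2 and SKIL as increases and SMAD6, ID1, ID2 and ID3 as decreases. Of all tested genes 36.2% passed that fit, 19.1% as increases and 17.1% as decreases. DESeq2, the tool named in the study's methods, called SMAD6, ID1 and ID2 without the block, and TGFB2, SMAD6, ID1, ID2 and ID3 with it. Of all genes to which DESeq2 gave an adjusted p, it called 7.91% without the block and 15.8% with it. The groups did not overlap in 6 of the 10 genes, against 54.5% of all tested genes. The FCN3 libraries were the lower in 4 of these 6 and the higher in 2, against 26.5% and 28% of all tested genes.

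Because the ID genes were lower together, the 250 bases before their annotated starts are shown (RefSeq, GRCh38.p14, printed in the direction of transcription, that is the plus strand for ID1 and ID2 and the minus strand for ID3). They lie at chr20:31605039-31605288 for ID1, chr2:8681806-8682055 for ID2 and chr1:23559502-23559751 for ID3. Capitals mark matches, on either strand, to TATAAA (the TATA box), CCAAT (the CCAAT box), GTCTG (which holds the core of the SMAD-binding element), GGCGCC (a GC-rich SMAD motif) and TGACGTCA (the cyclic AMP response element).
ID1 upstream region: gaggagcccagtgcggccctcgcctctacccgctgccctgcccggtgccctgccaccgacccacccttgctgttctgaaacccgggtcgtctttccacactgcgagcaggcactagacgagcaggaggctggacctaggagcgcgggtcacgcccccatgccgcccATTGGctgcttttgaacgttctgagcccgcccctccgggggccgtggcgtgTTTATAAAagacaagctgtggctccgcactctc
ID2 upstream region: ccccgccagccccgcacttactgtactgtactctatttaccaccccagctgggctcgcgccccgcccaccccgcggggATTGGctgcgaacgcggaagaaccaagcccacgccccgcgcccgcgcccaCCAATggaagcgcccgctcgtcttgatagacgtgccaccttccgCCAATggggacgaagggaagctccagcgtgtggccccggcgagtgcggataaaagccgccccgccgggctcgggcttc
ID3 upstream region: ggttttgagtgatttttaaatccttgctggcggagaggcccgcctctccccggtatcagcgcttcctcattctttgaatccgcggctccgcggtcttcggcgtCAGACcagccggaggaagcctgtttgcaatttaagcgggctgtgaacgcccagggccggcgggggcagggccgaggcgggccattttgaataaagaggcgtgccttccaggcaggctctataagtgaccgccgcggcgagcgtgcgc
The ID1 window held 1 CCAAT match and 2 overlapping TATAAA matches, 1 on each strand. The ID2 window held 3 CCAAT matches and the ID3 window 1 GTCTG match. None of the 3 windows held GGCGCC or TGACGTCA, and sequence beyond these 250 bases was not searched. Among 35116 windows of the same length in the RefSeq table, 10.7% held TATAAA, 32.0% CCAAT, 38.0% GTCTG, 16.4% GGCGCC and 1.65% TGACGTCA. No motif was shared by all 3 ID windows, and these are matches of letters, not shown to be sites. The SMAD6 window, searched in the same way and not printed, held no match to any of these motifs.

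ID2 codes for an inhibitor of basic helix-loop-helix transcription factors and maps to chromosome 2 of GRCh37 (plus strand, 8818975 to 8824591). Its level was at 152 and 213 CPM in EV replicates 1 and 2, and at 53.1 and 75.0 CPM in FCN3 replicates 1 and 2. Both FCN3 libraries lay below both EV libraries, at means of 64.0 ± 15.5 CPM against 183 ± 43.5 CPM (SD, n = 2 in each group), a level 64.9% lower. The log2 fold change was -1.51 (SE 0.23, adjusted p = 0.025 in the unpaired edgeR fit). The paired edgeR fit gave -1.51 again, with an SE of 0.06 and an adjusted p of 4.2e-29. The drop was nearly equal for both replicate numbers, with log2 differences of -1.52 for replicate 1 and -1.51 for replicate 2. ID2 passed the unpaired fit when EV replicate 1 (edgeR adjusted p = 0.0047) or FCN3 replicate 2 (0.0050) was left out. Ordered from the lowest fold change, ID2 ranked 100 of 14099 tested genes. ID2 overlaps ID2-AS1, a long noncoding RNA gene, over 3020 bases on the opposite strand. The strand setting of the counting is not given, so the ID2 counts may include reads of that gene.

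ID1, on the plus strand of chromosome 20 from 30193086 to 30194318, codes for another inhibitor of the same class. It was at 163 and 242 CPM in the EV libraries and 102 and 118 CPM in the FCN3 libraries, which did not overlap. The means were 202 ± 55.7 and 110 ± 11.3 CPM (SD, n = 2 in each group). The log2 fold change was -0.88 (SE 0.20, adjusted p = 0.063) in the unpaired edgeR fit and -0.86 (SE 0.06, adjusted p = 6.1e-18) in the paired edgeR fit. The log2 difference was -0.68 for replicate 1 and -1.04 for replicate 2. Without EV replicate 1 the unpaired edgeR fit called ID1 (adjusted p = 0.0056).

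ID3, another gene of the class, maps to chromosome 1 (minus strand, 23884417 to 23885992). It was at 214 and 301 CPM in the EV libraries and 176 and 199 CPM in the FCN3 libraries. The groups did not overlap, but the gap between FCN3 replicate 2 and EV replicate 1 was smaller than the difference between the EV replicates. For ID1, SMAD6 and SKIL too, the gap between the groups was smaller than the difference between the EV replicates. The log2 fold change of ID3 was -0.45 (SE 0.17, adjusted p = 0.19) unpaired and -0.44 (SE 0.06, adjusted p = 3.5e-09) paired, both from edgeR. The log2 difference of ID3 was -0.28 between replicate 1 libraries and -0.60 between replicate 2 libraries.

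SMAD6 codes for an inhibitory SMAD that acts mainly on BMP receptor signaling, and maps to the plus strand of chromosome 15 from 66994574 to 67075187. Its level was 44.5 and 61.7 CPM in EV replicates 1 and 2, and 24.8 and 35.6 CPM in FCN3 replicates 1 and 2. Both FCN3 libraries were below both EV libraries, the mean being 43.0% lower. The edgeR log2 fold change was -0.81 (SE 0.23, adjusted p = 0.11) in the unpaired fit and -0.82 (SE 0.07, adjusted p = 1.6e-14) in the paired fit. The differences within replicate numbers, -0.84 and -0.79, were close to each other.

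SMAD7, the inhibitory SMAD that blocks TGF-beta, activin and BMP receptors, did not pass either fit. It was at 31.2 and 41.0 CPM in EV cells and 35.9 and 43.7 CPM in FCN3 cells, so the groups overlapped. The log2 fold change was 0.15 (SE 0.07, adjusted p = 0.082) in the paired edgeR fit. SMAD7 maps to the minus strand of chromosome 18, from 46446223 to 46477335.

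SKIL codes for SnoN, a corepressor that binds SMAD2, SMAD3 and SMAD4, and maps to the plus strand of chromosome 3 from 170075130 to 170114623. It was at 53.4 and 61.2 CPM in the EV libraries and at 65.4 and 78.0 CPM in the FCN3 libraries. The groups did not overlap, and the mean was 25.2% higher with the FCN3 virus. The edgeR log2 fold change was 0.33 (SE 0.13, adjusted p = 0.19) unpaired and 0.32 (SE 0.06, adjusted p = 2.1e-05) paired.

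Among the ligand genes, TGFB2 was higher with the FCN3 virus and TGFB1 was not distinguishable between the groups. TGFB2, on the plus strand of chromosome 1 from 218518678 to 218617961, was at 97.1 and 119 CPM in EV cells and at 142 and 159 CPM in FCN3-virus-transduced cells. The FCN3 libraries were the higher ones in every pairing with an EV library. The log2 fold change was 0.48 (SE 0.13, adjusted p = 0.088) in the unpaired edgeR fit and 0.49 (SE 0.05, adjusted p = 1.2e-10) in the paired edgeR fit, with differences of 0.55 and 0.42 within the replicate numbers.
TGFB1, on chromosome 19 (minus strand, 41807492 to 41859827), was at 107 and 126 CPM in EV cells and 109 and 108 CPM in FCN3 cells. The FCN3 libraries fell within the range of the EV libraries. In the paired edgeR fit its log2 fold change came to -0.10 (SE 0.06), with an adjusted p of 0.15. TGFB1 overlaps HNRNPUL1, CCDC97 and TMEM91 on the opposite strand, and the strand setting of the counting is not given in the sources used here, so its counts may include reads of these genes.

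INHBA and INHBE code for the activin beta A and beta E subunits, and both were near the limit of detection. INHBA, on chromosome 7 (minus strand, 41706766 to 41745432), had 21 and 0 expected counts in EV replicates 1 and 2, and 50 and 7 in FCN3 replicates 1 and 2. The groups overlapped, since EV replicate 1 (0.576 CPM) was above FCN3 replicate 2 (0.352 CPM), and within each replicate number the FCN3 library was the higher. INHBA passed the paired edgeR fit (log2 fold change 1.52, SE 0.41, adjusted p = 0.0019) but not the unpaired fit (1.40, SE 0.94, adjusted p = 0.42). The unpaired log2 fold change was -0.12 without FCN3 replicate 1, 0.84 without EV replicate 2 (the library with 0 counts), 1.93 without FCN3 replicate 2 and 7.62 without EV replicate 1. The size and sign of its unpaired fold change therefore depended on single libraries. INHBA overlaps INHBA-AS1, a long noncoding RNA gene, on the opposite strand. As for TGFB1, the strand setting of the counting is not given, so its few counts may include reads of that gene.
INHBE, on the plus strand of chromosome 12 from 57846106 to 57853063, had 13 and 17 expected counts in EV cells and 20 and 20 with the FCN3 virus. In CPM, replicate 2 was above replicate 1 in both groups and the groups overlapped. The paired edgeR fit gave a log2 fold change of 0.33 with an SE of 0.39 (adjusted p = 0.52), so a change was not detectable at this depth.

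**Figure D1:**
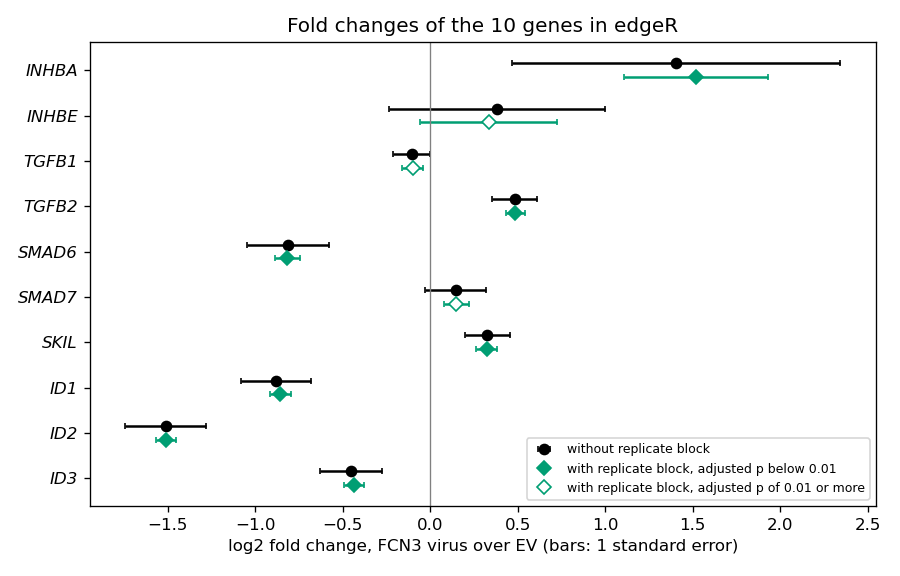
The log2 fold change of FCN3-virus over EV cells is shown for each gene from edgeR without (black circles) and with (green diamonds, filled where the adjusted p was below 0.01) the replicate number as a block; bars are 1 standard error (SE). The estimates of both fits nearly coincide, from -1.51 for ID2 to 1.52 for INHBA in the paired fit, and the bars are shorter in the paired fit for all 10 genes.

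The replicate numbers themselves separated 8 of the 10 genes when the condition was in the edgeR model. SMAD6, SMAD7, SKIL, TGFB2, ID1, ID2 and ID3 were higher in replicate 2, and INHBA was higher in replicate 1. Of all tested genes 22.2% were called in this comparison, 11.7% as higher and 10.5% as lower in replicate 2. The adjusted p in edgeR was lowest for ID2 (log2 difference 0.49, replicate 2 over replicate 1, adjusted p = 3.2e-10) and INHBA had the widest difference (-2.46, adjusted p = 2.2e-04). What the replicate numbers share was not tested.

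Ratios of related genes within a library, chosen after the values were seen, do not depend on library size or normalization. The ratio of ID2 to ID3 expected counts was 0.709 in both EV libraries and 0.301 and 0.377 in FCN3 replicates 1 and 2. The ratio of ID1 to ID3 was 0.761 and 0.803 in EV cells and 0.576 and 0.590 with the FCN3 virus. Relative to ID3, then, both ID2 and ID1 were lower in both FCN3 libraries. The ratio of SMAD6 to SMAD7 was 1.43 and 1.50 in EV cells and 0.692 and 0.816 with the FCN3 virus. Counts are not corrected for transcript length, so a ratio of counts does not rank the levels of its genes. In TPM, SMAD6 was at 21.5 and 33.9 and SMAD7 at 24.8 and 31.5 in FCN3 replicates 1 and 2. The ratio of TGFB2 to TGFB1 was 0.906 and 0.940 in EV cells and 1.31 and 1.48 with the FCN3 virus. In each of the 4 ratios the groups did not overlap, and each gave an exact two-sided permutation p of 0.333, the smallest this design allows. Because the pairs were picked with the values known, this separation is a description and not a test. On the log2 scale the group means of the ratios differed by -1.07 for ID2 to ID3, -0.42 for ID1 to ID3, -0.96 for SMAD6 to SMAD7 and 0.59 for TGFB2 to TGFB1.

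Levels were compared between genes only in TPM, the RSEM measure of transcript abundance, which corrects for transcript length. In EV cells ID3 (439 ± 102 TPM, SD, n = 2) and ID1 (437 ± 116 TPM) were the highest and could not be ordered, as their ranges overlapped. ID2 followed at 279 ± 64.9 TPM, then TGFB1 at 105 ± 11.6 TPM. SMAD6 (53.3 ± 13.0 TPM) stood above TGFB2 (34.5 ± 4.72 TPM) and SMAD7 (27.6 ± 5.06 TPM), the latter pair differing by less than the sum of their SDs.
With the FCN3 virus ID3 (298 ± 28.8 TPM) stood above ID1 (221 ± 23.5 TPM), and their ranges no longer overlapped. ID2 (91.2 ± 23.1 TPM) was at the level of TGFB1 (90.6 ± 0.382 TPM), and SMAD6 (27.7 ± 8.77 TPM) at that of SMAD7 (28.2 ± 4.77 TPM), below TGFB2 (44.9 ± 4.15 TPM). SKIL came next in both groups, at 14.9 ± 1.31 TPM and 17.4 ± 2.36 TPM. INHBA and INHBE had mean levels under 1 TPM in both groups and could not be ordered. Other neighbours that differed by less than the sum of their SDs were ID1 and ID2 in EV cells, and SMAD6 and SKIL in FCN3 cells.

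Beyond these 10 genes, 102 genes of the pathway in 7 lists were examined, of which 75 had enough counts to be tested. In the unpaired fit 0 passed and 20 of the 75 had an unadjusted p under 0.05, a share near the 25.1% of all tested genes. DESeq2 without the block called 10, against 7.91% of all genes with an adjusted p. In the paired edgeR fit 18 were called higher and 14 lower, against 19.1% and 17.1% of all tested genes. The median log2 fold change of the 75 genes in that fit was 0.08, beside 0.01 over all tested genes.

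Of the 12 other ligand genes tested, BMP6 was called higher and INHBB, the activin beta B subunit, lower in the paired edgeR fit. INHBB was at 62.2 and 42.0 CPM in EV cells and 44.2 and 35.0 CPM in FCN3 cells (log2 fold change -0.39, adjusted p = 5.9e-06), and its groups overlapped. Of the 14 tested receptors and co-receptors 3 were higher and 3 lower. The type I receptor gene ACVR1 went from 23.4 and 22.5 CPM to 41.1 and 36.2 CPM, a paired log2 fold change of 0.76 (adjusted p = 6.2e-12, and 0.025 unpaired, in edgeR). TGFBR2, the type II TGF-beta receptor, had a log2 fold change of -0.41 in the paired edgeR fit (adjusted p = 1.1e-08), with overlapping groups. In the unpaired edgeR fit the adjusted p of INHBB and TGFBR2 was 0.32 and 0.43.
Of the 6 signal-carrying SMADs, SMAD2 (paired log2 fold change -0.41) and SMAD3 (-0.25) were called lower, with edgeR adjusted p of 1.2e-07 and 2.7e-05. Unpaired, edgeR gave adjusted p of 0.079 for SMAD2 and 0.28 for SMAD3. The BMP-branch genes SMAD1, SMAD5 and SMAD9 and the shared SMAD4 were not called in either fit.

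Of 11 tested genes of extracellular antagonists and latency proteins, 2 were called higher and 2 lower in the paired fit. FST, which codes for the activin-binding protein follistatin, was at 22.1 and 15.8 CPM in EV cells and 11.1 and 5.88 CPM in FCN3 cells (log2 fold change -1.15, SE 0.11, edgeR adjusted p = 7.4e-13). GREM1, a secreted BMP antagonist, was at 44.1 and 21.9 CPM in EV cells and 79.5 and 50.7 CPM in FCN3 cells (log2 fold change 1.01, SE 0.07, edgeR adjusted p = 3.1e-17). Thus an activin antagonist was lower and a BMP antagonist higher, each without overlap between groups. In the unpaired edgeR fit their adjusted p was 0.10 and 0.18. LTBP2 was called higher and LTBP1 lower in the paired fit, by smaller amounts (0.34 and -0.29). Their unpaired edgeR adjusted p was 0.11 and 0.52.
Among 12 intracellular negative regulators 3 were higher and 3 lower. SMURF2, a ubiquitin ligase for SMADs and receptors, rose in the paired fit from 81.7 and 76.4 CPM to 123 and 136 CPM (log2 fold change 0.71, edgeR adjusted p = 5.1e-15). PMEPA1, a TGF-beta-induced inhibitor of SMAD signaling, fell in that fit from 267 and 265 CPM to 174 and 162 CPM (-0.66, edgeR adjusted p = 5.2e-16). Their adjusted p in the unpaired edgeR fit, 0.018 and 0.015, did not pass 0.01.

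Of 14 other TGF-beta target genes tested, 8 were called higher and 1 lower in the paired fit, with a list median of 0.57. Over all tested genes that fit called 19.1% higher and 17.1% lower, with a median of 0.01. In the unpaired fit 0 of the 14 passed. Among the 8, SNAI2, named because its replicates disagreed, had log2 differences of 0.98 for replicate 1 and -0.14 for replicate 2. The other called increases were higher for both replicate numbers. CTGF, a matricellular growth factor gene, was at 24.9 and 37.0 CPM in EV libraries against 50.8 and 75.4 CPM in FCN3 libraries, and BHLHE40, a transcriptional repressor gene, at 80.7 and 118 against 183 and 207 CPM. Their log2 fold changes were 1.03 (adjusted p = 1.3e-18) and 1.00 (adjusted p = 2.8e-20) in the paired edgeR fit, and their unpaired adjusted p was 0.080 and 0.044. TAGLN, an actin-binding protein gene, varied more between replicate numbers than between groups (24.4 and 76.2 CPM in EV cells, 46.9 and 130 CPM in FCN3 cells). The called decrease was COL4A1, a basement membrane collagen gene named after its value was seen. Its paired log2 fold change was -0.54 (adjusted p = 1.0e-12, and 0.021 unpaired, in edgeR). TGFBI was not called (0.05 in the unpaired fit).
Of 6 other BMP target genes tested, ID4 and ATOH8 were called lower and HEY1 higher in the paired fit. ID4, the remaining ID gene, was at 6.31 and 8.30 CPM in EV cells and 1.74 and 3.37 CPM in FCN3 cells (log2 fold change -1.59, SE 0.17, edgeR adjusted p = 4.2e-11). ATOH8, a basic helix-loop-helix factor gene, was at 15.9 and 25.3 CPM against 6.19 and 11.2 CPM (log2 fold change -1.27, edgeR adjusted p = 5.4e-15). Thus all 4 ID genes were called lower in the paired fit, as were 17.1% of all tested genes. In the unpaired edgeR fit the adjusted p of ID4 and ATOH8 was 0.059 and 0.10. HEY1, named because it was the only increase, was at most 2.12 CPM in any library.

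The genes whose profile over the 4 libraries lay nearest to that of ID2, among 11968 candidates, were HPDL, NES and C21orf58, at Euclidean distances of 0.13, 0.13 and 0.15 between centred log2 CPM. Nearest to INHBA were AIM1, CREB5 and REPS2, at distances of 0.99, 1.05 and 1.31. Candidates averaged 1 or more in log2 CPM and INHBA only -0.42, so genes at its own level were not compared. With 4 libraries, near profiles are a description only.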

How the data were processed

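RNA was measured in 4 A549 libraries, 2 per group, with groups and replicate numbers taken from the labels. Per the study's methods, stranded mRNA libraries were sequenced as paired-end reads, trimmed, aligned to hg19 with STAR 2.6.1d and quantified with RSEM. The files the authors deposited hold expected counts, which are estimated and not normalized, TPM, which is scaled for length and depth, and FPKM, which the authors also deposited and which was not used here. The annotation and strandedness of the counting are not given in the sources used here. Besides INHBA and ID2, TGFB2 and INHBE overlap noncoding RNA genes on the opposite strand, and TGFB1, TGFB2 and SMAD6 on the same strand. Their counts may include reads of these genes.

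Expected counts were rounded and fitted in edgeR 4.0.16 (R 4.3.3, TMM, filterByExpr, quasi-likelihood test, FDR 0.01). Each standard error was computed from the log2 fold change and the F statistic (absolute value over root F). The paired fit has the replicate number as a block. The numbers come from the labels, which do not say what they share, and nothing says that cultures were independent. The p-values therefore speak only of these libraries. They rest on a spread estimated with information shared across genes, and in the paired fit on what remains after the replicate difference is removed. With so few libraries, a small paired p-value does not measure how well a single gene replicates. A floor of 3 counts corresponds to 0.084 to 0.183 CPM and covers counting error only. Alternatives were DESeq2 1.42.0, limma 3.58.1 (voom, log2(TPM + 1), log2(TPM + 0.1)), RLE factors, FCN3 left out, other filters, the legacy method, FDR 0.05 and each library left out. The fits were tested on simulated data. The members, the lists and the naming rule were chosen with earlier results of these data known. The rule names all 10 members, FCN3, up to 4 called genes per list averaging 1 or more in log2 CPM, and the 3 nearest profiles of the members with the largest increase and decrease; exceptions are marked. The result for 1 gene that the rule names is left out. Locations come from GENCODE on GRCh37 and upstream sequences from RefSeq on GRCh38.p14, where ID1, ID2, ID3 and SMAD6 were searched.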

Additional observations from a re-analysis of the deposited data

How the results depend on the processing

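With the replicate block, 7 members, 32 other pathway genes and 5103 genes in all were called, against 0, 0 and 136 without it (for all genes, 104 higher and 32 lower without and 2690 higher and 2413 lower with it). The block at an FDR of 0.05, added after seeing the data, gave 7, 37 and 6601. DESeq2 called 3, 10 and 1046 unblocked, and 5, 18 and 2209 when blocked. An FDR of 0.05 without the block gave 1 (ID2), 7 and 1014. With each library left out, members called ranged from 0 to 2, other pathway genes from 0 to 2 and all genes from 92 to 267. ID1 (adjusted p = 0.0056 in edgeR) and ID2 (0.0047) were called without EV replicate 1, ID2 (0.0050) without FCN3 replicate 2, and BHLHE40 without EV replicate 2, the fit with 267 genes. The count for all genes without FCN3 replicate 1 was 92. limma-voom, limma on TPM with either pseudocount, RLE factors, the legacy method, FCN3 left out before normalization and the other filters called 0 members and 0 other pathway genes. Over all settings, TGFB2 and SKIL stayed higher and SMAD6, ID1, ID2 and ID3 lower. INHBA, INHBE, TGFB1 and SMAD7 changed sign when single libraries were left out, INHBA with log2 fold changes from -0.12 to 7.62, the latter without EV replicate 1, which leaves an EV library at 0 counts. INHBA was not among the genes with at least 10 counts in every library. Depth limits INHBA and INHBE, with at most 50 counts in a library.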
